A study of Mus musculus with 4 samples.

Results

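The CC chemokines of macrophages examined here were Ccl2, Ccl3, Ccl4, Ccl5, Ccl6, Ccl7, Ccl8, Ccl9, Ccl12 and Ccl22, chosen by name. They comprised 10 of the 18193 genes with a probe set on the arrays, and 12 of 45037 probe sets, since Ccl6 and Ccl9 had 2 probe sets each and the other genes had 1. All probe sets whose only annotated symbol was a listed gene were taken, on all 4 arrays.

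KO macrophages came from LysM Cre/+:Setdb1 fl/fl mice and WT macrophages from +/+:Setdb1 fl/fl mice without Cre, so that floxed Setdb1 alleles were shared by both genotypes, labelled as strain C57BL6/J. Setdb1 encodes a methyltransferase of lysine 9 of histone H3. LysM Cre acts in macrophages and also in neutrophils. The cells were adherent peritoneal exudate cells elicited with thioglycollate, and each genotype received lipid A, the active part of LPS and a ligand of TLR4, or vehicle for 4 h. The lipid A concentration is given as 10 ng/ml in the series design and as 10 µg/ml in the sample labels. The age of the mice and the number of mice behind each array are not given in the sources used here. Each of the 4 conditions (KO lipid A, WT lipid A, KO vehicle, WT vehicle) was measured on 1 array, so that no difference has a replicate check and no p-value is given.

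CC chemokines are small secreted proteins named for a pair of adjacent cysteines, and they attract leukocytes through G protein-coupled receptors. Macrophages that sense LPS through TLR4 release several of them, with NF-κB and interferon signals acting on their genes. Ccl2, Ccl7 and Ccl12 draw monocytes through Ccr2, Ccl3 and Ccl5 act in part through Ccr1, mouse Ccl6 and Ccl9 act through Ccr1, mouse Ccl8 acts through Ccr8, and Ccl22 acts through Ccr4.

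Values are signals on a linear scale, and the median signal of an array was 75.8 in KO lipid A and 74.8 in WT lipid A, and 84.2 in KO vehicle and 65.1 in WT vehicle. For a comparison, a gene counted as detected if at least its higher signal was no less than the median of that array, and where the lower signal fell short of the median of its array the fold is a lower bound, taken against this median. The log2 differences of probe sets for 1 gene varied with an SD between 0.39 and 0.46 in the 4 comparisons, or 1.31-fold to 1.38-fold, which is a technical spread and holds no difference between mice. Setdb1 gave signals of 386 in KO lipid A and 521 in WT lipid A, and 346 in KO vehicle and 589 in WT vehicle by the only 1 of its 3 probe sets that reached the median, and its values in KO were 1.35-fold lower under lipid A and 1.70-fold lower under vehicle. Where that probe set lies relative to the deletion is not known here. All 8 macrophage markers listed reached the median on every array, with summed signals between 159993 and 205812. Of these, Adgre1 was 2.73-fold lower in KO vehicle (3726) than in WT vehicle (10187), and 1.39-fold lower in KO under lipid A. No other macrophage marker passed 2-fold between the genotypes under either treatment. Marker sums of other cells differed between the genotypes under both treatments. B cell markers (6 of 7 with a probe set) summed to 5619 in KO lipid A against 403 in WT lipid A, and to 5379 in KO vehicle against 557 in WT vehicle. Markers of resident large peritoneal macrophages (8 of 8) summed to 3508 in KO lipid A against 649 in WT lipid A, and to 3729 in KO vehicle against 672 in WT vehicle. Neutrophil markers (6 of 8) summed to 1087 in KO lipid A against 4276 in WT lipid A, and to 1212 in KO vehicle against 5454 in WT vehicle. The largest signals were those of Mmp8 (217 in KO lipid A, 2346 in WT lipid A) and S100a8 (676 and 1721). Camp was also lower in KO, with 46.9 in KO lipid A against 78.4 in WT lipid A, and 21.1 in KO vehicle against 81.8 in WT vehicle. It reached the median in WT only, and its bounds were 1.04-fold under lipid A and 1.03-fold under vehicle. The remaining neutrophil markers had signals near or below the median. Ngp gave 91.1 in KO lipid A and 45.9 in WT lipid A, at least 1.22-fold higher in KO, and was below the median on both vehicle arrays. Ltf reached the median in KO vehicle only, at 99.7, and was there at least 1.53-fold higher than in WT vehicle. S100a9 was below the median on all 4 arrays. None of the markers was at 0. In such bulk samples, fewer cells of a type and less RNA per cell cannot be told apart, and the part of these cells in the chemokine signals was not tested.

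Under lipid A, most of the CC chemokines that were detected had higher signals in KO macrophages than in WT macrophages. Over 3-fold higher in KO lipid A were 6 of the 10 genes, namely Ccl2, Ccl3, Ccl4, Ccl7, Ccl9 and Ccl22, whereas 4.30% of all genes passed the same threshold. At lower signals in KO, Ccl8 was the 1 member past 3-fold by its measured ratio, against 3.89% of all genes, although its bound is 2.12-fold. With both signals required to reach the median, the count was 5 of 7 genes against 1.21% of 9685 genes. The log2 ratio of KO over WT under lipid A had a median of 2.14 over the 9 chemokines detected and of -0.01 over the 12335 genes detected.

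**Figure D1:**
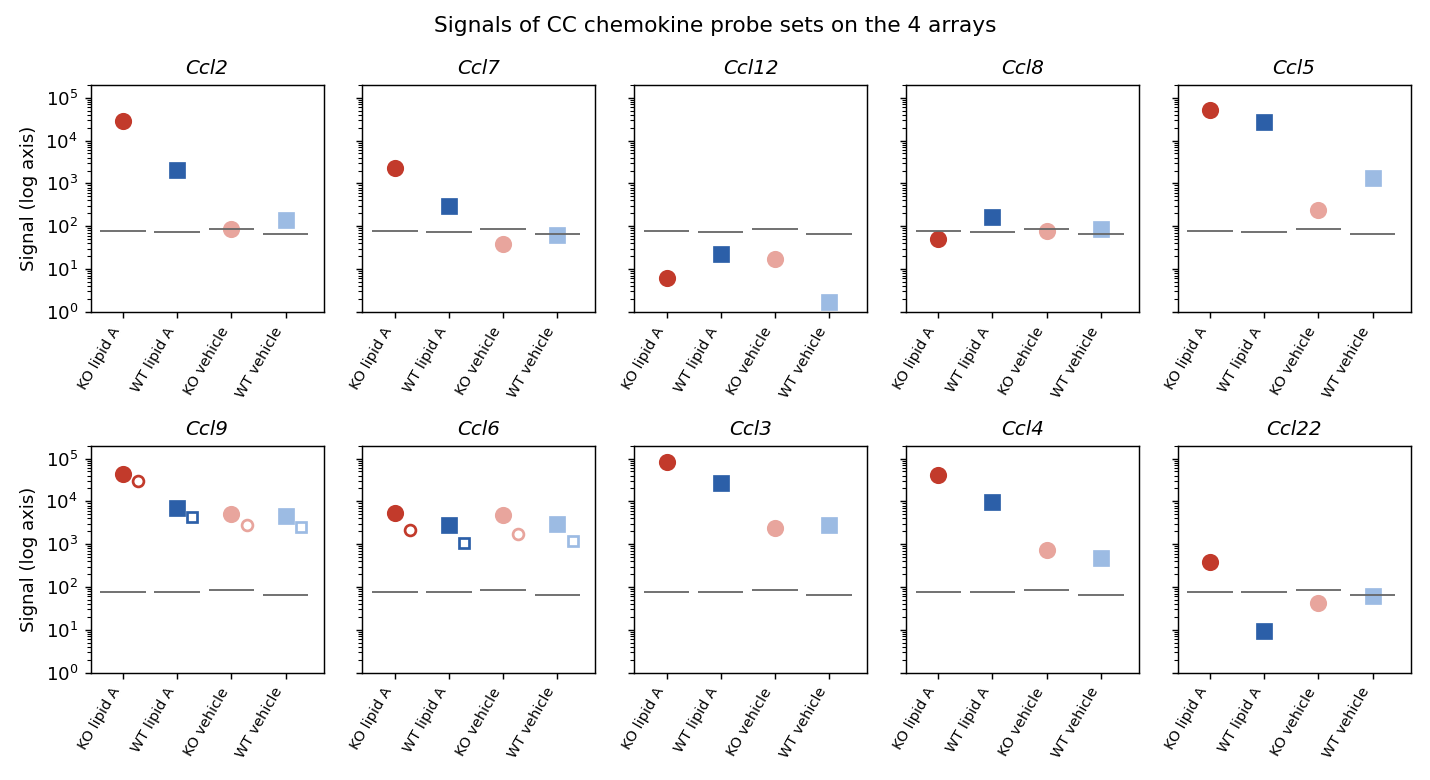
Signal (log axis) of each CC chemokine on the KO lipid A, WT lipid A, KO vehicle and WT vehicle arrays, with 1 point per probe set, filled for the brightest and open for a further probe set, and a grey line at the median of each array. Ccl2 reached 28749 in KO lipid A and 2036 in WT lipid A, while Ccl12 stayed below the median on all 4 arrays.

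In KO macrophages, lipid A raised 7 of the 10 genes over 2-fold (Ccl2, Ccl3, Ccl4, Ccl5, Ccl7, Ccl9 and Ccl22), against 7.57% of all genes. In WT macrophages it raised 5 of them, without Ccl9 and Ccl22, against 7.85% of all genes. No member was over 2-fold lower with lipid A, either in KO, where 10.8% of all genes were, or in WT, where 5.96% were. The median log2 response was 5.49 in KO and 2.72 in WT over the 8 chemokines detected in each comparison, and over all detected genes it was -0.20 in KO and -0.08 in WT. These comparisons share arrays with each other, so that the KO lipid A array enters both the KO response and the genotype difference under lipid A.

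Among the monocyte attractants, Ccl2 had the largest genotype difference measured on both lipid A arrays. Its signals were 28749 in KO lipid A and 2036 in WT lipid A, and 88.3 in KO vehicle and 137 in WT vehicle. The KO vehicle signal was thus close to the median of its array, 84.2, and the WT vehicle signal lay further above its own, 65.1, while both lipid A signals were far higher. Lipid A raised it 326-fold in KO and 14.9-fold in WT, which left it 14.1-fold higher in KO than in WT under lipid A. Of the 9685 genes at or above the median on both lipid A arrays, 8 had a larger log2 difference between KO and WT than Ccl2. Of the 9745 genes measured in both KO arrays, 1 had a larger response than Ccl2.

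Ccl7, which lies next to Ccl2 and attracts monocytes likewise, had signals of 2328 in KO lipid A and 295 in WT lipid A. Without stimulation it gave 38.0 in KO vehicle and 63.9 in WT vehicle, both below the median. Lipid A therefore raised Ccl7 at least 27.7-fold in KO and at least 4.52-fold in WT, and it was 7.91-fold higher in KO than in WT under lipid A. The last value rests on signals above the median on both arrays, and 15 of 9685 genes had a larger difference.

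The other genes of the same cluster did not share this pattern. Ccl8 gave 50.3 in KO lipid A and 160.3 in WT lipid A, and 76.7 in KO vehicle and 88.0 in WT vehicle. It reached the median only in WT macrophages, by a small margin in WT vehicle, and with lipid A it was 1.82-fold higher in WT. Under lipid A it was at least 2.12-fold lower in KO than in WT. Ccl12, a further mouse ligand of Ccr2, gave 6.09 in KO lipid A and 22.0 in WT lipid A, and 16.8 in KO vehicle and 1.68 in WT vehicle. All 4 signals were below the median, so that no fold is given for Ccl12.

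The chemokines Ccl3 and Ccl4, which recruit monocytes, T cells and NK cells, were high without stimulation and higher with lipid A. Ccl3 gave 84833 in KO lipid A and 26907.5 in WT lipid A, and 2397 in KO vehicle and 2849 in WT vehicle. Lipid A raised it 35.4-fold in KO and 9.44-fold in WT. Under lipid A it was 3.15-fold higher in KO than in WT, just over the threshold of 3.

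Ccl4 gave 42238 in KO lipid A and 9608 in WT lipid A, and 742 in KO vehicle and 480.4 in WT vehicle. Lipid A raised it 56.9-fold in KO and 20.0-fold in WT, and it was 4.40-fold higher in KO than in WT under lipid A. Its genotype difference under lipid A and its response in WT both exceeded those of Ccl3.

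Ccl5, or RANTES, an attractant of T cells and monocytes that interferon also induces, differed from Ccl3 and Ccl4 before stimulation. Its signals were 53151 in KO lipid A and 27849 in WT lipid A, and 239.7 in KO vehicle and 1352 in WT vehicle. Under vehicle it was 5.64-fold lower in KO than in WT, and 20 of 9872 genes at or above the median on both vehicle arrays were lower still. It was the only member over 2-fold different between KO and WT under vehicle as measured, while Ccl2 also passed, by a narrow margin, when each array was divided by its median. Of all genes, 4.07% were over 2-fold lower under vehicle and 7.32% over 2-fold higher. Lipid A raised it 222-fold in KO and 20.6-fold in WT, and with lipid A it was 1.91-fold higher in KO. The low KO vehicle signal is part of the 222-fold response, which exceeded the WT response although the lipid A signals of the genotypes differed by less than 2-fold. T and NK cells also express Ccl5, and their markers (6 of 8 with a probe set) summed to 602 in KO lipid A against 227 in WT lipid A, and to 866 in KO vehicle against 239 in WT vehicle. Of the 6 T and NK cell markers, 5 reached the median in KO lipid A and 1 in WT lipid A, and 4 in KO vehicle and 0 in WT vehicle. The part of these cells in the Ccl5 signals was not tested.

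**Figure D2:**
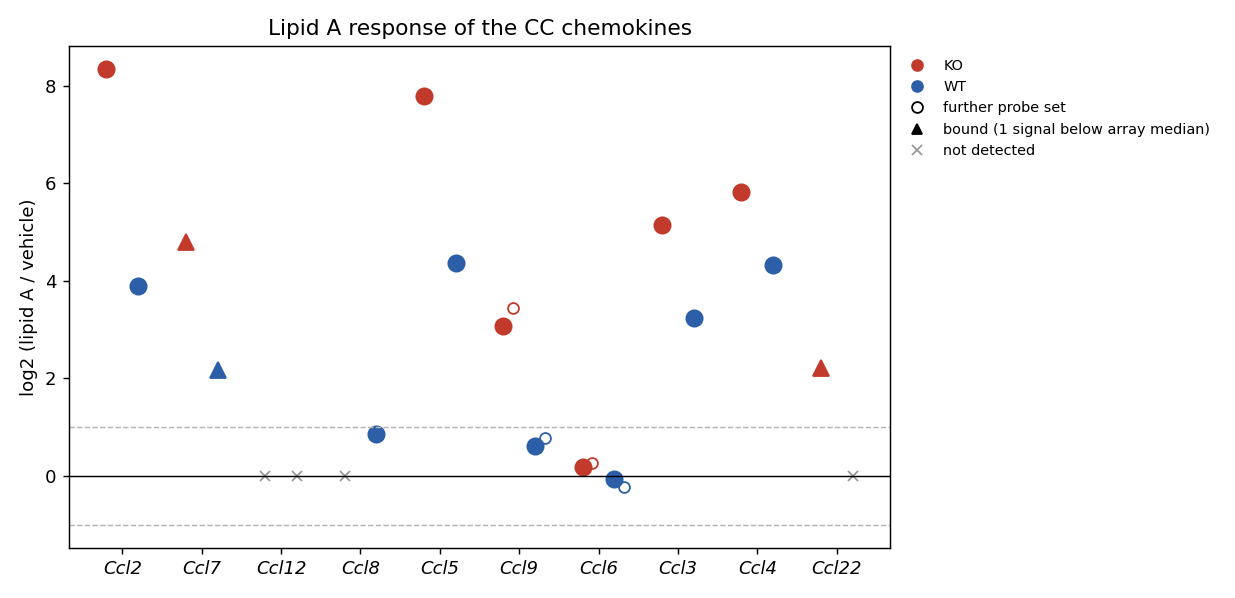
Log2 ratio of lipid A over vehicle for each CC chemokine in KO (red) and WT (blue), with open points for further probe sets, triangles for lower bounds where a signal was below the array median, crosses for genes not detected, and dashed lines at 2-fold. Ccl2 had the largest KO response at 8.35, against 3.90 in WT, and Ccl6 lay near 0 in both genotypes.

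Ccl9 and Ccl6 are neighbouring genes of related chemokines, known in the mouse and expressed by myeloid cells without stimulation. By its brightest probe set, Ccl9 gave 42799 in KO lipid A and 6909 in WT lipid A, and 5044 in KO vehicle and 4504 in WT vehicle. Its further probe set gave 30051 in KO lipid A and 4419 in WT lipid A, and 2779.7 in KO vehicle and 2585 in WT vehicle. The KO lipid A signal stood above those of the other arrays in both probe sets.

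With lipid A, Ccl9 was 8.49-fold higher in KO (10.8-fold by the further probe set) and 1.53-fold higher in WT (1.71-fold). It was therefore below the 2-fold threshold in WT and past it in KO. Under lipid A it was 6.19-fold higher in KO than in WT, with 6.80-fold from the further probe set, and 27 of 9685 genes had a larger difference. Under vehicle the genotypes differed by 1.12-fold and 1.08-fold, within the technical spread.

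Ccl6 gave 5446 in KO lipid A and 2797 in WT lipid A, and 4759.8 in KO vehicle and 2899 in WT vehicle. Its further probe set gave 2123 in KO lipid A and 1042 in WT lipid A, and 1755 in KO vehicle and 1209.9 in WT vehicle. Both KO signals were above both WT signals in each probe set, whether lipid A was given or not. Under lipid A, Ccl6 was 1.95-fold higher in KO than in WT, or 2.04-fold by the further probe set. Under vehicle it was 1.64-fold higher in KO, or 1.45-fold by the further probe set. The lipid A responses of 1.14-fold in KO and 1.04-fold (lower with lipid A) in WT were within the technical spread, as were those of the further probe set, 1.21-fold in KO and 1.16-fold (lower with lipid A) in WT.

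The sequence upstream of these genes is shown because they are neighbours with unlike responses to lipid A. RefSeq windows (GRCm38.p6) were used for 6 of the 10 genes, namely Ccl3, Ccl6, Ccl8, Ccl9, Ccl12 and Ccl22, without Ccl2, Ccl4, Ccl5 and Ccl7. The 250 bases before the annotated start are printed 5′ to 3′ on the strand of the gene, in lower case, with matches to the searched motifs in capitals on either strand. The motifs were the NF-κB consensus, the letters GGGACTT with which a known NF-κB site begins, the TATA box TATAAA, the AP-1 site TGANTCA, and the core of the interferon-stimulated response element, which is GAAA followed after any 2 bases by a further GAAA.
Ccl9 (chr11:83578637-83578886, minus strand): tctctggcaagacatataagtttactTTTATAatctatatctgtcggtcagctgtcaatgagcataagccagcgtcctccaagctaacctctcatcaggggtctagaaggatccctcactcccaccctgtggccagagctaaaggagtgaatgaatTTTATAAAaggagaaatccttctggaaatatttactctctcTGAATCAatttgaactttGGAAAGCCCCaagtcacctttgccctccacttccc
Ccl6 (chr11:83593088-83593337, minus strand): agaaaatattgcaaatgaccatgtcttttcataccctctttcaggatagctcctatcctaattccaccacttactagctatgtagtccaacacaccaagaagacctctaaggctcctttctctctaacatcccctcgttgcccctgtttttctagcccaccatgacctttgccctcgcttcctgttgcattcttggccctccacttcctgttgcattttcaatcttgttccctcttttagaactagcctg
The Ccl9 window held an NF-κB consensus match that starts 35 bases before the annotated start, an AP-1 match that starts 53 bases before it, and 3 TATAAA matches, of which 2 overlap on opposite strands. The Ccl6 window held no match to these letters. Of 32851 windows of the same length, 7.25% held the NF-κB consensus, 6.75% the AP-1 site, 12.4% TATAAA and 2.98% the interferon response core, which none of the 6 windows of the members held. The Ccl3 window held none of the motifs, and the Ccl8 and Ccl12 windows held TATAAA only. A match describes the letters and does not show binding.

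Ccl22, which attracts regulatory and helper T cells through Ccr4, reached the median on the KO lipid A array only. Its signals were 392 in KO lipid A and 9.44 in WT lipid A, and 42.9 in KO vehicle and 60.4 in WT vehicle. It was at least 5.24-fold higher in KO than in WT under lipid A and raised at least 4.65-fold by lipid A in KO. Ccl22 was below the median on both WT arrays. Dendritic cells are another source of Ccl22, and their markers (6 of 7 with a probe set) summed to 365 in KO lipid A against 333 in WT lipid A, and to 757 in KO vehicle against 302 in WT vehicle. Most of these sums came from few markers that reached the median, 3 of 6 in KO vehicle and 2 of 6 on each other array. The upstream window of Ccl22 is shown since the gene was detected in a single condition.
Ccl22 (chr8:94745434-94745683, plus strand): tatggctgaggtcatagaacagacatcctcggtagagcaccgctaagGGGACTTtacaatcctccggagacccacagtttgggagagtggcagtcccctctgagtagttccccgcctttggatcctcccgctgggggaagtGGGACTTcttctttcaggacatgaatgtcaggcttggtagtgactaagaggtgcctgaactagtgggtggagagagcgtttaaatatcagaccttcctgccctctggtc
It held the motif GGGACTT at 2 places, starting 203 and 109 bases before the annotated start, and 4.65% of the 32851 windows held this motif. A GGGACTT match can also be part of an NF-κB consensus match, which was not so in the Ccl22 window.

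Ccl17, the other ligand of Ccr4, lies close to Ccl22 on chromosome 8 with 1 protein-coding gene between them in the RefSeq table. Its signals were 167 in KO lipid A and 13.8 in WT lipid A, and 42.3 in KO vehicle and 5.28 in WT vehicle. Ccl17 thus reached the median in KO lipid A only, as Ccl22 did, and was at least 2.24-fold higher in KO than in WT under lipid A. Ccr4 itself gave 79.6 in KO lipid A, close to the median of 75.8, and stayed below the median on the other arrays.

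Without stimulation the genotypes differed less at these genes. Of the 7 members detected under vehicle, Ccl5 alone was past 2-fold as measured, and their median log2 ratio of KO over WT was -0.20, against 0.10 over 12002 detected genes. Ccl2 was 1.55-fold lower in KO vehicle, Ccl3 1.19-fold lower and Ccl4 1.55-fold higher. Ccl4 and Ccl6 were higher in KO under both treatments. The direction of Ccl9 under vehicle turned when each array was divided by its median, with log2 differences of -0.21 in that setting and 0.16 as measured.

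**Figure D3:**
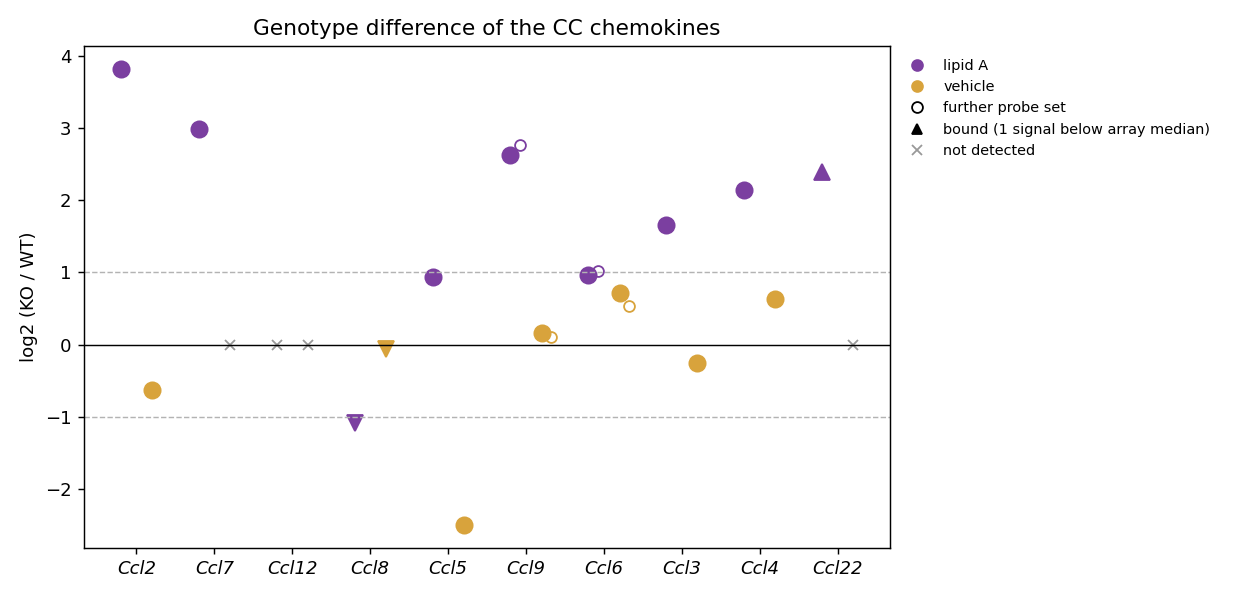
Log2 ratio of KO over WT for each CC chemokine under lipid A (purple) and under vehicle (yellow), with open points for further probe sets, triangles for bounds where a signal was below the array median, crosses for genes not detected, and dashed lines at 2-fold. Ccl2 was at 3.82 under lipid A and at -0.63 under vehicle, and Ccl5 was at -2.50 under vehicle.

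The KO response minus the WT response was -1.47 for Ccl8 and above 0 for the others of the 9 members that reached the median on any array. On the log2 scale it was 4.45 for Ccl2, 3.43 for Ccl5, 1.91 for Ccl3 and 1.51 for Ccl4, each from 4 signals at or above the median. For Ccl9 it was 2.47 by the brightest probe set and 2.66 by the further one, and for Ccl6 it was 0.25 and 0.49. Both Ccl6 values were below 0.60, the SD of such a difference by the spreads between probe sets in the KO and WT responses. With signals below the median raised to it, Ccl7 gave 2.61, Ccl22 2.02 and Ccl8, below the median on both KO arrays, -1.02. The median over the 9 members was 2.47, or 2.02 with signals raised in this way, and over all 13567 genes that reached the median on any array it was -0.10, or -0.18. Ccl9 was alike in both genotypes under vehicle and differed under lipid A, whereas Ccl5 differed under vehicle and was within 2-fold under lipid A.

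**Figure D4:**
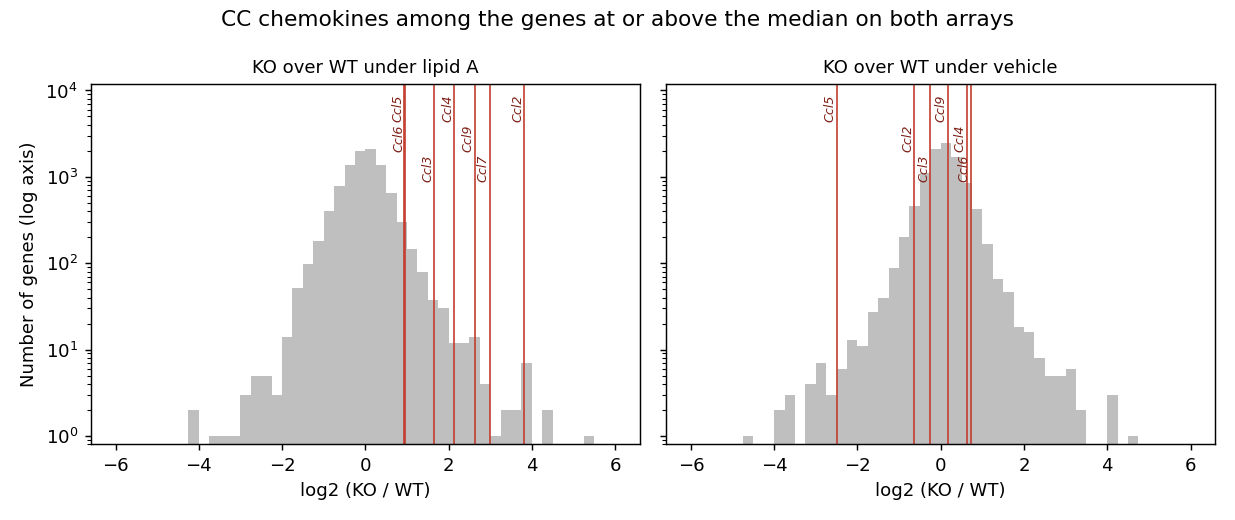
Number of genes (log axis) by log2 ratio of KO over WT under lipid A (left, 9685 genes) and under vehicle (right, 9872 genes), for genes at or above the median on both arrays, with red lines at the CC chemokines among them. Under lipid A all 7 lines lie to the right of 0, from 0.93 for Ccl5 to 3.82 for Ccl2, and under vehicle 6 lines run from -2.50 for Ccl5 to 0.72 for Ccl6.

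By position, the members form groups on chromosome 11. In the RefSeq gene table the order is Ccl2, Ccl7, Ccl11, Ccl12, Ccl8 and Ccl1 with no other protein-coding gene between them, and, after 25 further coding genes, Ccl5, Ccl9, Ccl6, Ccl3 and Ccl4. In the cluster of Ccl2, the pair Ccl2 and Ccl7 was over 3-fold higher in KO lipid A, while Ccl8 was lower and Ccl11, Ccl12 and Ccl1 were below the median on both lipid A arrays. In the cluster of Ccl5, all 5 genes were higher in KO under lipid A by their brightest probe sets, from 1.91-fold for Ccl5 to 6.19-fold for Ccl9. Neighbouring genes thus had unlike values, as Ccl9 and Ccl6 show.

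Among 8 other CC chemokines with a probe set, of 11 listed, 5 were detected under lipid A. By measured ratios, Ccl17 and Ccl24 were over 2-fold higher in KO, where 7.18% of all genes were, and Ccl20 was over 2-fold lower, where 6.99% of all genes were, each with the lower signal below the median. Ccl24 gave 119.8 in KO lipid A and 14.5 in WT lipid A, at least 1.60-fold higher, and Ccl20 gave 4.12 in KO lipid A and 81.6 in WT lipid A, at least 1.08-fold lower. These bounds leave Ccl17 as the only 1 of them over 2-fold.

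Of 10 CC chemokine receptors with a probe set, 6 were detected under lipid A. Ccr1, the receptor of Ccl3, Ccl5, Ccl6 and Ccl9, gave 3436.5 in KO lipid A and 3629 in WT lipid A, and 4933 in KO vehicle and 6959 in WT vehicle. By this brightest probe set it was 1.44-fold lower with lipid A in KO and 1.92-fold lower in WT, and the genotypes differed by 1.06-fold under lipid A. A further Ccr1 probe set, above the median on every array, was 1.82-fold lower with lipid A in KO and 3.69-fold lower in WT. By that probe set the genotypes differed by 1.10-fold under lipid A. Ccr2, the receptor of Ccl2 and Ccl7, gave 78.3 in KO lipid A and 49.7 in WT lipid A, and 117 in KO vehicle and 40.4 in WT vehicle by the brightest of its 4 probe sets. Of these 6 receptors, 1 (Ccr4) was over 2-fold higher in KO by its measured ratio, against 7.18% of all genes, and at least 1.06-fold by the bound.

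Among atypical receptors, which bind chemokines without classical signaling, Ccrl2 had signals of 24545 in KO lipid A and 24444 in WT lipid A, and 1985 in KO vehicle and 3861 in WT vehicle. It was raised by lipid A 12.4-fold in KO and 6.33-fold in WT, and its lipid A signals differed little between the genotypes. Of the 4 genes of this list, 0 differed over 2-fold between KO and WT under lipid A. Of all genes, 7.18% were over 2-fold higher and 6.99% over 2-fold lower, so that a count of 0 among 4 is near these shares. Ackr4, a scavenger of other CC chemokines, gave 259.5 in KO lipid A and 451 in WT lipid A, and 653 in KO vehicle and 644 in WT vehicle by its brightest probe set. A further probe set, above the median on every array, gave 309 in KO lipid A and 313 in WT lipid A, and 478 in KO vehicle and 470 in WT vehicle.

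Of 19 genes of chemokine receptor signaling with a probe set, 18 were detected under lipid A and 2 were over 2-fold lower in KO, against 6.99% of all genes, while 0 were higher, against 7.18% of all genes. The count of 2 is near the share over all genes. Arrb1, which encodes an arrestin that desensitizes receptors, gave 250.1 in KO lipid A and 743 in WT lipid A, and 1337 in KO vehicle and 1238 in WT vehicle. It was 2.97-fold lower in KO under lipid A. Plcb2, a phospholipase, was the other, with 15.7 in KO lipid A and 76.1 in WT lipid A, at least 1.01-fold lower. Rgs2, which limits G protein signaling, was lowered by lipid A 10.1-fold in KO and 2.22-fold in WT.

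Chemokines are held at the cell surface by glycosaminoglycans, and 11 of 12 listed carriers and synthesis genes had a probe set. Sdc4, a heparan sulfate proteoglycan, gave 12163 in KO lipid A and 3906 in WT lipid A, and 404 in KO vehicle and 807 in WT vehicle. Under lipid A it was 3.11-fold higher in KO, with 3.14-fold from a further probe set. Vcan was 2.04-fold higher by its brightest probe set. Sdc1, another heparan sulfate proteoglycan, was 2.93-fold lower by its brightest probe set, with 1512 in KO lipid A and 4436 in WT lipid A, but its further probe sets did not pass 2-fold, at 1.98-fold lower, 1.60-fold lower and 1.37-fold higher in KO. By the brightest probe sets, 2 of the 11 detected genes were over 2-fold higher in KO lipid A, against 7.18% of all genes, and 1 was lower, against 6.99%. Of the 5 proteases that cut chemokines, Mmp12 was high on all arrays, from 58675 to 70554. By measured ratios, 1 was over 2-fold lower in KO lipid A, against 6.99% of all genes. This was Mmp2, at least 1.76-fold lower. Under vehicle 2 were over 2-fold lower in KO, Mmp14 and Mmp9, against 4.07% of all genes. Mmp9 gave 48.0 in KO vehicle and 179.7 in WT vehicle, at least 2.13-fold lower. Mmp14 gave 5802 in KO lipid A and 10767 in WT lipid A, and 414 in KO vehicle and 5026 in WT vehicle, so that it was 12.2-fold lower in KO under vehicle and 1.86-fold lower under lipid A.

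Of 15 transcription factors of the TLR4 response with a probe set, of 17 listed, 3 were over 2-fold higher in KO lipid A, against 7.18% of all genes, and 1 was lower, near the 6.99% of all genes. The NF-κB subunit genes Nfkb2 and Rel were 2.57-fold and 2.30-fold higher, the coactivator gene Nfkbiz was 2.04-fold higher (1.90-fold and 1.61-fold by further probe sets), and the AP-1 gene Fos was 3.23-fold lower. Rela was 1.08-fold higher, and the interferon regulatory factor gene Irf1 1.01-fold lower. Rel gave 1951 in KO lipid A and 848 in WT lipid A, and 254 in KO vehicle and 247 in WT vehicle.

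The genes whose pattern over the 4 arrays was most like that of Ccl2 were Il1b, Il1a, Cxcl1, Il12b and Il6, which encode cytokines and a neutrophil attractant. Likeness was the Euclidean distance between log2 signals, each gene centred on its own mean and signals below the median raised to it, over 9678 genes other than the 10 CC chemokines, each at or above the median on both lipid A arrays. Distances of the members were computed in the same way whether or not they reached it. The distances were 1.23 for Il1b, 1.28 for Il1a, 1.32 for Cxcl1, 1.46 for Il12b and 1.52 for Il6. Among the CC chemokines, Ccl4 was nearest to Ccl2 at 1.82, followed by Ccl5 at 2.43, Ccl3 at 2.48 and Ccl7 at 2.79. Ccl9 at 4.39, Ccl22 at 5.07, Ccl6 at 6.45, Ccl12 at 6.70 and Ccl8 at 6.74 were farther. This is a description over 4 arrays, and Ccl2 was taken as the point of comparison because of its difference between KO and WT on these same arrays. Genes near to Ccl2 therefore share that difference through the choice.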

How the data were processed

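Gene expression was measured on 4 Affymetrix mouse arrays, each for a different condition. The values deposited by the authors are intensities, that is, linear signals per probe set. Every array had a mean of 500.004 once the lowest and highest 2% of values were removed, from which a scaling by the authors was inferred. Which software made the signals was not given in the sources used here, and detection calls are not used here. Gene names came from the platform annotation, with 34945 probe sets of 1 symbol, 932 of several and 9160 of none after 64 controls were left out. For each gene the brightest probe set by mean log2 signal was taken.

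Signals were compared on the log2 scale. The fold thresholds of the study's methods, 2 for the response and 3 between genotypes under lipid A, were used without the calls that the methods required beside them, and 2 was also used between genotypes under vehicle and for the pathway lists. The number of arrays limits the precision. Scripts were tested on simulated data. The members, lists and rules were chosen with earlier results of these data known. The genes named are all members, up to 4 genes past 2-fold from each list and comparison described, and the 5 genes most like Ccl2. Other genes, named after their values were seen, were Ccl1, Ccl11, Ccr1, Ccr2, Ccrl2, Ackr4, Rela, Irf1 and Mmp12. Promoter windows came from RefSeq (GRCm38.p6). The alternatives were other scalings, detection filters, probe set summaries and thresholds. Computations ran in Python 3.11.15 (numpy 2.4.6, pandas 2.3.3, SciPy 1.17.1), and plots were made with matplotlib 3.10.9.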

Additional observations from a re-analysis of the deposited data

Results flagged for a closer look

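At 3 genes KO was above WT with lipid A and below it with vehicle, and at 1 gene the response ran in opposite directions in KO and WT. These differences were not tested, with 1 array for each condition. The log2 ratio of KO over WT for Ccl2 was 3.82 under lipid A and -0.63 under vehicle, 4.45 apart. Ccl5 had 0.93 under lipid A and -2.50 under vehicle, 3.43 apart. Ccl3 had 1.66 under lipid A and -0.25 under vehicle, 1.91 apart, and its vehicle difference was smaller than the SD of 0.42 between probe sets of the same gene. For Ccl6 the lipid A response had opposite signs in the genotypes, at 0.19 in KO and -0.05 in WT, 0.25 apart, and both responses were smaller than the SDs of 0.46 and 0.39 between probe sets of the same gene in these comparisons.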

How the results depend on the processing

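No paired analysis was possible because each condition has 1 array. In 7 alternatives, no direction of a member past 2-fold turned. Those that change detection filters or thresholds leave the ratios as they are, so that they could not turn a direction. Only the other scalings, low signals raised to the median, and the median over probe sets change a ratio. The median over probe sets does so for Ccl6 and Ccl9 only. The count of members over 2-fold lower in KO than in WT under vehicle was 2 (Ccl2 and Ccl5) when each array was divided by its median, and the median KO over WT log2 difference of all genes on both vehicle arrays was then -0.28 in place of 0.09 (-0.04 in place of -0.19 for the KO response, -0.29 in place of -0.09 for the WT response). The median log2 response of the members in KO was 4.17 with no requirement on signals, which adds Ccl8 and Ccl12, and 4.97 once every signal under the median of its array was set to that median. In WT it was 3.24 when both signals had to reach the median. With low signals set to the median, 4 of 32 values of single members moved by more than the SD between probe sets, all of them genes with a signal below the median. On the log2 scale these were 2.22 for the Ccl22 response and 4.79 for the Ccl7 response in KO, and 2.39 for Ccl22 and -1.08 for Ccl8 between KO and WT under lipid A. Signals near or below the array median carry little information about a fold, which limits the values of Ccl8, Ccl12 and Ccl22, the responses of Ccl7, and the KO response of Ccl2, whose KO vehicle signal was 88.3 against a median of 84.2.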
